A study of Rattus norvegicus with 4 samples.

Results

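The molecules described here are 10 genes through which Schwann cells, the glia of peripheral nerves, hold on to axons and to each other: L1cam, Nrcam, Nfasc, Ncam1, Cadm1, Cadm4, Cntn1, Cdh2, Cdh13 and Lgi4. They were chosen by name as 10 of the 14217 genes that have a probe set of their own, and every probe set whose platform annotation gives exactly 1 of these symbols was taken, which made 23 probe sets of the 31042 on the array that are not controls. RNA came from RT4D6, a rat Schwannoma line (tumour cells of Schwann cell origin), 48 h after transfection according to the labels. In 2 samples the cells received the wild type siRNA against the transcription factor Sox10, called the specific siRNA, and in 2 they received a mutant siRNA, the control. The pairs are numbered replicate 1 and replicate 2, all arrays come from this 1 cell line, and no untransfected culture was analysed here. Values are MAS5 signals, 1 per probe set, on a linear scale that the authors set to a common mean. Every log2 fold change is given as the specific minus the mutant siRNA group.

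Adhesion between axon and Schwann cell is built from a few protein families. L1cam, Nrcam and Nfasc, of the L1 family, and Ncam1 are immunoglobulin-type proteins that bind copies of themselves and one another across the gap. L1cam and Ncam1 are known from immature and non-myelinating Schwann cells, whereas Nrcam and Nfasc sit at and beside the node of Ranvier, where glial Nfasc faces a complex of Cntn1 on the axon. Cadm proteins line the internode, with Cadm4 on the Schwann cell side. Cdh2 (N-cadherin) joins Schwann cell precursors through calcium-dependent contacts linked to catenins, and Cdh13 is a cadherin on a lipid anchor. Lgi4 is secreted by Schwann cells, binds Adam22 on the axon and is needed for myelination.

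The study looked for Sox10 sites by the core ACAAT or its complement ATTGT, together with binding matrices and conservation across species. Its search ran on to the end of the first intron, whereas here the core alone was searched in a shorter window. The RefSeq promoter table used here (assembly GRCr8, 250 bases before to 50 after each start) held 4 starts of 3 of these genes, 2 of Nfasc and 1 each of Cadm4 and Cntn1. Each held the core 1 time, searched on both strands. Of all 33469 promoters in the table, 33.7% held it at least 1 time. The stretches around these cores are shown, each ending at the start at the latest, because they are the promoter sequence of these genes at hand that carries the core. Capitals mark the core.

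Nfasc, chr13:46701165-46701226, minus strand: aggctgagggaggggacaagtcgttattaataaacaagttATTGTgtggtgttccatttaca
Nfasc, chr13:46627984-46628068, minus strand: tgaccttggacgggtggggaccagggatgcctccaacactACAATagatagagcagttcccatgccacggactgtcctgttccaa
Cadm4, chr1:89202931-89203015, plus strand: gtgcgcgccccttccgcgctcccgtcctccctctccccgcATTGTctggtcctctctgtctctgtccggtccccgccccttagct
Cntn1, chr7:125252241-125252309, plus strand: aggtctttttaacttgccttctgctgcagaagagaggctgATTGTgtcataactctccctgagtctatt

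Read 5′ to 3′, the core of Cadm4 begins 118 bases before the start, those of Nfasc 22 and 180 bases and that of Cntn1 29 bases before it. Of the 300 bases of the Cadm4 promoter, 76.0% are G or C, against a median of 51.7% over all promoters in the table. A core in such a window is a description and not a binding site, and the changes of these genes are given with the others.

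Sox10 itself read 163 and 335 after the specific siRNA, against 2873 and 2890 in the controls, so that the Schwann cell factor was clearly present in the control cells. All 6 measured genes of a list of 8 Schwann cell markers fell (Gfap not without mutant siRNA replicate 1, adjusted p = 0.0523, and Erbb3 bright enough to test on the mutant siRNA arrays alone), and their summed signal was 1143 and 1648 after the specific siRNA, against 17420 and 13260 in the controls. That list includes Sox10 and was drawn up with results of these arrays known, so that its count is no independent sign of direction. Of 7 smooth muscle markers 4 could be tested and 2 rose, Acta2 (lost without the variance trend of the fit and without mutant siRNA replicate 1, adjusted p = 0.0808 in the latter) and Tagln. The summed signal of that list was 23990 and 28800 against 6788 and 11400, of which Tagln alone made 21242 and 22657 against 5482 and 9015. Smtn, of the same list, was at -0.84 and -0.47 in its probe sets and did not pass (adjusted p = 0.0633 and 0.448), the first doing so with the replicate number as a block (adjusted p = 0.0127). The untested Des and Myocd were lower on both specific siRNA arrays as well. Of 9 neuronal markers 4 could be tested and 1, Map2, fell in 1 of its 2 probe sets (lost without the variance trend, and without wild type siRNA replicate 1 or mutant siRNA replicate 1, adjusted p = 0.106 and 0.221). Of that list Map2, Nefl and Nefm lay above the array median on all 4 arrays, while Snap25, Syt1, Rbfox3, Stmn2 and Gap43 lay below it on all 4. Of 16 fibroblast, melanocyte and macrophage markers 4 could be tested and none passed in limma after adjustment, while 2 had an unadjusted p under 0.05, Col1a1 at 0.70 in 1 of its 2 tested probe sets and Pmel at -0.86. With the replicate block both passed (adjusted p = 0.0240 and 0.0365). Whether these marker changes have a part in the values that follow was not tested. In such bulk RNA, fewer cells that carry a transcript and less of it per cell cannot be told apart.

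Of the 23 probe sets, 10 were bright enough to test, at or above the median of their array on at least 2 of the 4 arrays. They stand for 6 genes, L1cam, Ncam1, Cadm1, Cadm4, Cdh2 and Lgi4, while Nrcam, Nfasc, Cntn1 and Cdh13 had no such probe set. With the specific siRNA the probe sets of L1cam and Lgi4 fell, 2 of 10, and 1 of the pair of probe sets for Cadm1 rose, at an adjusted p under 0.05 from limma over all 16125 probe sets tested. Over all of these, 12.1% were lower and 14.6% were higher, and with 10 probe sets the shares of the adhesion molecules do not stand apart from those. The median log2 fold change was -0.20 over the 10 probe sets and 0.13 over all tested. No adhesion molecule passed the brightness rule through 1 group alone.

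**Figure D1:**
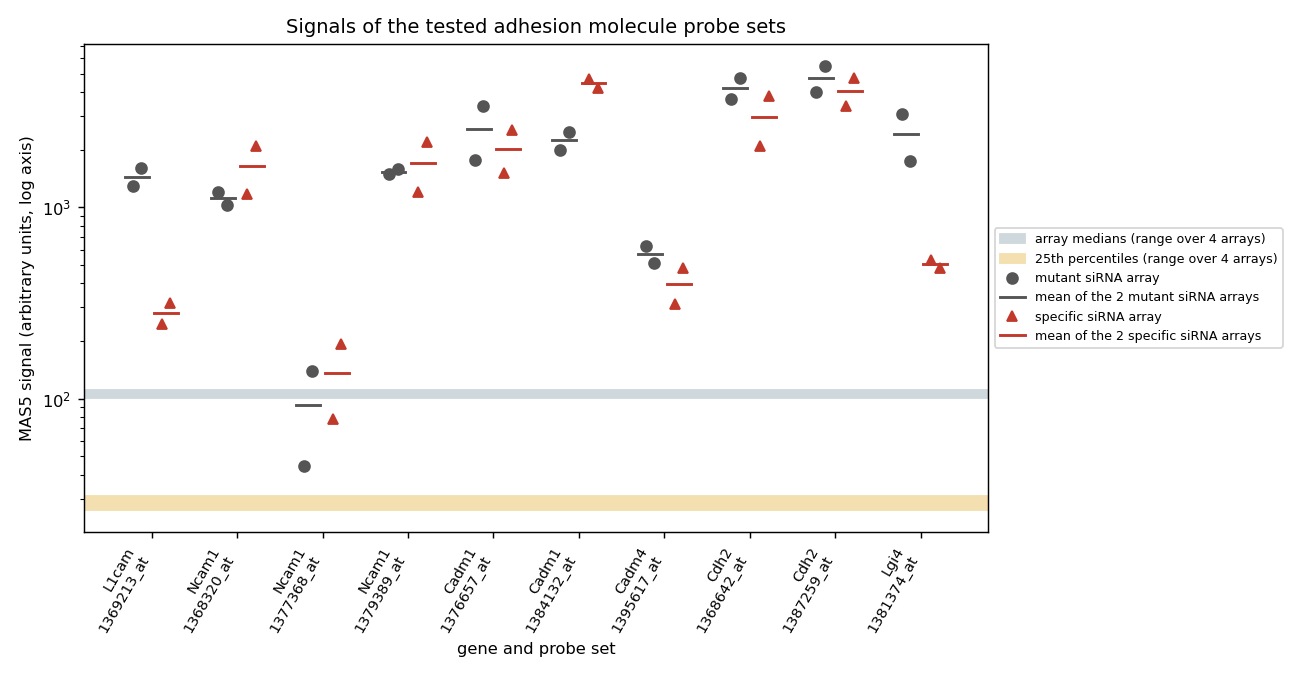
MAS5 signal on a log axis for the 10 tested probe sets of the adhesion molecules, with grey circles for the 2 mutant siRNA arrays, red triangles for the 2 specific siRNA arrays and horizontal lines for the mean of each pair. The grey band holds the array medians (101 to 110) and the yellow band the 25th percentiles (26.2 to 31.0), and L1cam and Lgi4 are the probe sets whose red triangles lie wholly below the grey circles, while those of Cadm1 1384132_at lie wholly above.

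L1cam, the founding member of its family and a protein of early axon contact, read 247 and 315 after the specific siRNA, against 1295 and 1596 in the controls. The groups lay far apart and neither had an array out of line with its partner. The means were 281 ± 48.1 and 1446 ± 213 (SD, n = 2 each). This is a 4.89-fold decrease, or -2.29 ± 0.24 (SE) as log2 fold change, with a 95% interval from -2.83 to -1.74 and a limma adjusted p of 0.00156. It was -2.36 within the replicate 1 pair and -2.22 within the replicate 2 pair. With each array left out in turn it was between -2.49 and -2.09 and passed the test every time. The array carries a single probe set for L1cam, so that no second measurement of the gene stands beside it.

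Nrcam and Nfasc, the other members of the L1 family among the genes chosen by name, were dim. Nrcam, a molecule of the node, had 3 probe sets, of which the brightest, 1371036_at, read 44.6 and 18.4 after the specific siRNA, against 71.3 and 135 in the controls. In this probe set 1 mutant siRNA array alone reached the array median. In 1392734_at the signals were 5.2 and 1.0 against 56.7 and 7.3, so that the specific siRNA arrays were lower here as well, but 3 of the 4 values lay below the 25th percentile of their array. In 1377001_at, with 9.5 and 36.5 against 28.3 and 52.5, the groups overlapped.

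Nfasc, whose glial form anchors the paranodal loops, was represented by 5 probe sets, all below the array median on all 4 arrays. In 1374164_at the signals were 10.3 and 16.7 after the specific siRNA, against 65.3 and 85.5 in the controls. In 1380917_at they were 5.0 and 11.8 against 38.5 and 67.1, and in 1370877_at they were 12 and 49.2 against 96.2 and 92.3. These 3 probe sets were lower on both specific siRNA arrays than on both mutant siRNA arrays, and in the first 2 of them both specific siRNA signals lay below the 25th percentile. The 2 others went another way. Probe set 1393181_at was a little higher with the specific siRNA, at 46.1 and 56.1 against 32.4 and 40, and 1388041_s_at lay below the 25th percentile on all 4 arrays, between 3.0 and 20.6. Which exons or isoforms of Nfasc the probe sets read is not given in the sources used here.

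Of the 13 untested probe sets of all 10 genes, 5 had both specific siRNA arrays below both mutant siRNA arrays (38.5%) and 1 had them above (7.69%). Among all 14917 untested probe sets these shares were 18.1% and 17.6%. The 5 came from Nfasc and Nrcam alone and probe sets of 1 gene share their target, so that they count as 2 genes. When every probe set was tested without the brightness rule, 2 of the 13, Nfasc 1374164_at and 1380917_at, had a p under 0.05 before adjustment, but none passed after it. The lowest adjusted p was 0.167 from limma, for Nfasc 1374164_at, at a log2 fold change of -2.43. The size of a change between signals this close to background is not established.

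**Figure D2:**
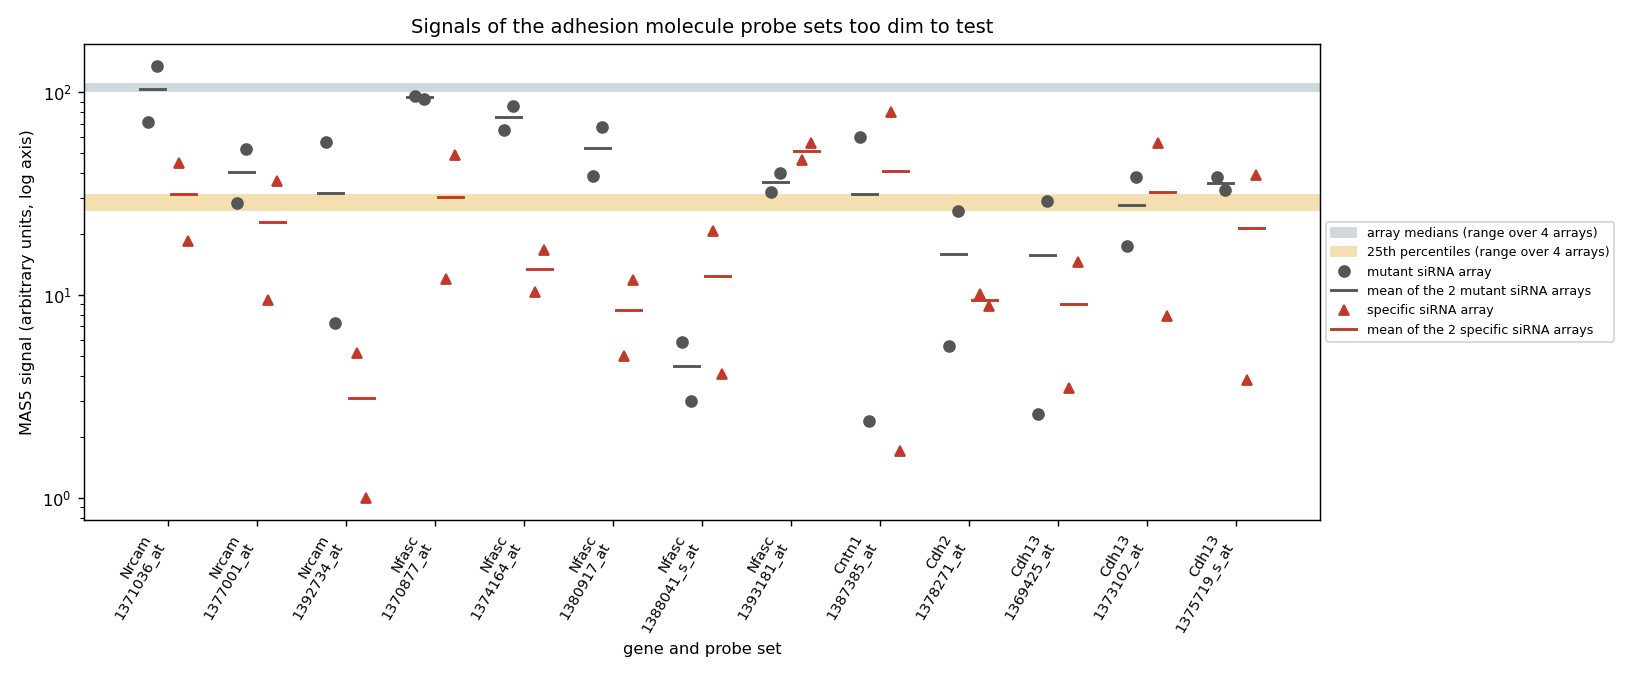
MAS5 signal on a log axis for the 13 probe sets of the adhesion molecules that were too dim to test, with symbols and bands as in the plot of the tested probe sets. All signals lie between 1.0 and 135, Nfasc 1374164_at, 1380917_at and 1370877_at have both red triangles below both grey circles, and the arrays of Cntn1 and Cdh13 spread over more than the distance between the groups.

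Cntn1, the axonal partner of glial Nfasc, read 80 and 1.7 after the specific siRNA, against 60.4 and 2.4 in the controls. Both replicate 1 arrays were thus higher than both replicate 2 arrays whatever the siRNA, and all 4 lay below the array median. Of the other contactins and the contactin-associated proteins, 7 of 9 listed genes had a probe set and none was bright enough to test, Cntn2 and Cntnap1 among them.

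Ncam1, the neural cell adhesion molecule, was measured by 3 probe sets and none passed the test. In 1379389_at the signals were 1200 and 2207 after the specific siRNA, against 1498 and 1579 in the controls. In 1368320_at they were 1170 and 2101 against 1205 and 1033. In both, the specific siRNA replicate 2 array was well above the other 3 arrays and the replicate 1 array was not. The log2 fold changes were 0.16 (95% interval -0.50 to 0.82, adjusted p = 0.709 from limma) and 0.57 (-0.10 to 1.24, adjusted p = 0.177). A decrease of the size seen for L1cam lies outside both intervals. Without wild type siRNA replicate 1 the fold change of 1368320_at was 1.02 and passed (adjusted p = 0.0147), and without wild type siRNA replicate 2 it was 0.12, so that its size is decided by which of these arrays is kept. The dimmer 1377368_at, at 78.0 and 193.7 against 44.7 and 139.7, had an interval from -0.91 to 2.34.

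Enzymes that put polysialic acid on Ncam1, St8sia2 and St8sia4, were too dim to test. Fgfr1, a receptor with which Ncam1, L1cam and Cdh2 are known to interact, had log2 fold changes of 0.72 and 0.73 in its pair of probe sets and did not pass (adjusted p = 0.0766 and 0.0562 from limma). With the replicate number as a block both passed (adjusted p = 0.0225 and 0.0354).

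Cadm1, a nectin-like adhesion molecule, had 2 bright probe sets that differed. In 1384132_at the signals were 4700 and 4214 after the specific siRNA, against 1989 and 2480 in the controls, a rise on both arrays. Its means were 4457 ± 344 and 2235 ± 347 (SD, n = 2 each), and it increased 2.12-fold, or by 1.08 ± 0.18 (SE) on the log2 scale, with a 95% interval from 0.67 to 1.49 and a limma adjusted p of 0.00527. It was 1.27 within the replicate 1 pair and 0.89 within the replicate 2 pair, and it passed with each array left out in turn. In 1376657_at the signals were 1514 and 2522 against 1775 and 3368, and here the groups overlapped and the replicate 2 arrays were the higher of each group. This probe set was at -0.24 (95% interval -1.01 to 0.53, adjusted p = 0.616).

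The log2 ratio of 1384132_at to 1376657_at within each array was 1.63 and 0.74 after the specific siRNA, against 0.16 and -0.44 in the controls. The groups differed by 1.33 and did not overlap, at p = 0.333 in a two-sided exact permutation test, which is the smallest p that 2 arrays against 2 allow. Both probe sets carry the single symbol Cadm1. The transcripts that each one reads are not given in the sources used here, so that the increase belongs to 1384132_at and cannot be assigned to the gene as a whole.

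Cadm4, the Schwann cell partner of axonal Cadm3 and the owner of a core shown above, read 312 and 483 after the specific siRNA, against 626 and 512 in the controls. The log2 fold change was -0.47 (95% interval -1.12 to 0.19, adjusted p = 0.252 from limma). The pairs went apart, with -0.97 in replicate 1 and 0.04 in replicate 2, and the test was not passed under any alternative. Cadm3 itself was too dim to test in both of its probe sets.

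Nectin2 is a relative of the Cadm proteins that forms junctions between cells. It rose, from 202 and 130 with the mutant siRNA to 814 and 556 with the specific siRNA in 1375216_at. On the log2 scale this was 2.13 ± 0.32 (SE, limma adjusted p = 0.00380), and it passed with every array left out in turn. A second probe set, 1389681_at, was at or above the array median on the specific siRNA arrays alone, so that it entered the test through the group where it is high and adds no support. The remaining probe set was too dim. Of the 6 Cadm and nectin genes with a probe set beyond the members themselves, 3 could be tested and Nectin2 was the 1 that changed. Over all genes tested, 12.8% had a probe set that fell and 19.7% one that rose. Nectin3, at 0.53 in 1378027_at, did not pass (adjusted p = 0.106) and did so with the replicate block (adjusted p = 0.0185). Its other tested probe set, 1385316_at, was at -0.14 with overlapping groups (adjusted p = 0.727 from limma).

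Cdh2, the main cadherin of Schwann cell precursors, had 2 bright probe sets. The signals were 2079 and 3830 after the specific siRNA, against 3666 and 4736 in the controls, in 1368642_at, and 3376 and 4738 against 3999 and 5464 in 1387259_at. In both the specific siRNA arrays were lower within each pair, but the groups overlapped, since the replicate 2 arrays were brighter than their replicate 1 partners. The log2 fold changes were -0.48 (95% interval -1.15 to 0.18, adjusted p = 0.241 from limma) and -0.15 (-0.67 to 0.37, adjusted p = 0.661). With the replicate number as a block 1368642_at passed (adjusted p = 0.0417) and 1387259_at did not (adjusted p = 0.458). Without wild type siRNA replicate 2 the first was at -0.95 and passed as well (adjusted p = 0.0105), and without wild type siRNA replicate 1 it was at -0.02. The remaining probe set, 1378271_at, lay below the 25th percentile on all 4 arrays.

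Cdh13 was dim in all 3 of its probe sets, with signals between 2.6 and 56.3 and no probe set in which the groups stood apart. Of 10 other cadherins with a probe set, 3 could be tested, and 1 fell and 1 rose, where the shares over all genes tested were 12.8% and 19.7%. Cdh3 (P-cadherin) went from 300 and 445 with the mutant siRNA to 123 and 162 with the specific siRNA, a log2 fold change of -1.29 (adjusted p = 0.0241). The call was lost without wild type siRNA replicate 1, mutant siRNA replicate 1 or mutant siRNA replicate 2 (adjusted p between 0.0543 and 0.172). Cdh6, a cadherin of neural crest cells, went from 194 and 140 to 303 and 542, at 1.38 (adjusted p = 0.0272), a call lost without the variance trend and without wild type siRNA replicate 2 or either mutant siRNA array (adjusted p between 0.0548 and 0.128 with an array left out).

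Catenins tie cadherins to the actin cytoskeleton. Ctnna1 was at a log2 fold change of -0.12, Ctnnd1 at -0.16 and the brightest of 3 tested probe sets of Ctnnb1 at -0.04, and none of these passed the test. Jup (plakoglobin), which can take the place of beta-catenin at junctions, fell from 2845 and 2346 to 962 and 1266, at -1.15 (standard error 0.22, adjusted p = 0.00918 from limma), which no longer passed once mutant siRNA replicate 1 was left out (adjusted p = 0.0647). Ctnnbip1, an inhibitor of beta-catenin and not part of junctions, fell in both of its bright probe sets, at -1.52 and -0.90 (adjusted p = 0.00356 and 0.0113), the second of which was lost without either mutant siRNA array (adjusted p = 0.0717 and 0.0563). In all, 2 of the 6 genes tested from the catenin list fell (33.3%), Jup and the inhibitor Ctnnbip1, and none rose. The shares over all genes tested were 12.8% and 19.7%.

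Lgi4, the secreted Schwann cell factor, read 530 and 482 after the specific siRNA, against 3075 and 1736 in the controls. The specific siRNA arrays were close to each other and far below both mutant siRNA arrays, which differed from each other more. The means were 506 ± 33.9 and 2406 ± 946 (SD, n = 2 each). The decrease was 4.33-fold, -2.11 ± 0.28 (SE) as log2 fold change, with a 95% interval from -2.76 to -1.47 and a limma adjusted p of 0.00279. Within the replicate 1 pair it was -2.50 and within the replicate 2 pair -1.73. With each array left out in turn it was between -2.54 and -1.68, passing every time. Its interval overlaps that of L1cam over most of its length, and a difference between the changes of these genes was not tested.

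The receptors through which Lgi proteins are known to act, Adam22, Adam23 and Adam11, and the relatives Lgi1 and Lgi3 were too dim to test. These are the 5 genes of that list with a probe set, so that no tested change of a receptor stands beside that of Lgi4.

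**Figure D3:**
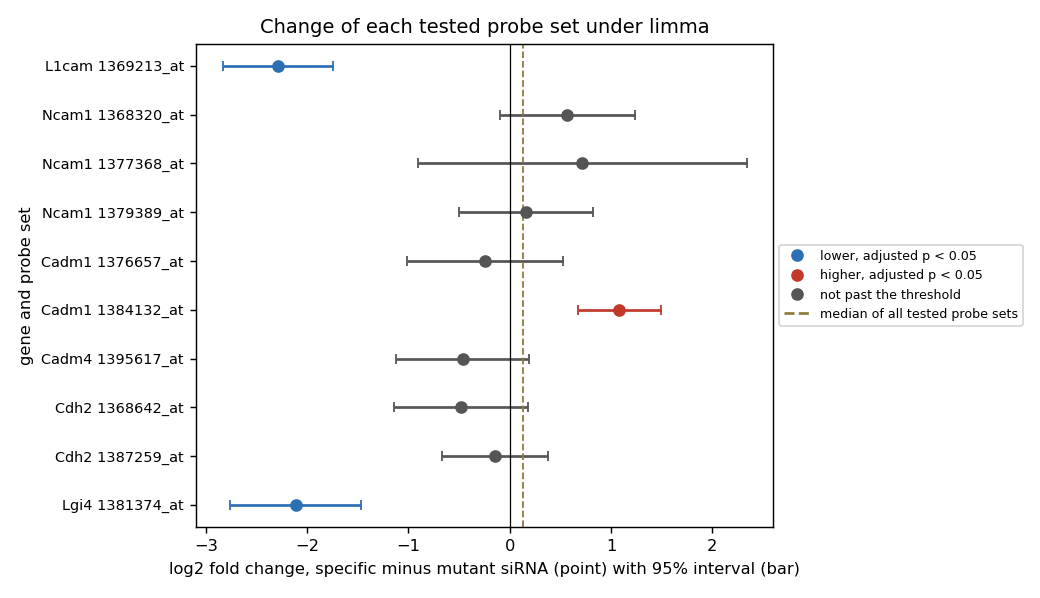
Log2 fold change, specific minus mutant siRNA, of the 10 tested probe sets of the adhesion molecules, with bars for the 95% interval from limma and a dashed line at 0.13, the median of all tested probe sets. L1cam (-2.29) and Lgi4 (-2.11) lie to the left with bars that do not reach 0, Cadm1 1384132_at (1.08) lies to the right, and the other 7 bars cross 0.

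Set side by side, the tested adhesion molecules differed in the direction and the size of their change within the pairs of arrays. L1cam, Lgi4 and Cadm1 1384132_at moved the same way and by more than 0.8 on the log2 scale in both pairs. Ncam1 1368320_at, at -0.01 and 1.15, Ncam1 1379389_at, at -0.29 and 0.61, and Cadm4 moved in 1 pair and not, or the opposite way, in the other. Both Cdh2 probe sets and Cadm1 1376657_at were below 0 in both pairs, by -0.08 to -0.78. Ncam1 1377368_at was above 0 in both, at 0.84 and 0.60, with signals near the array median.

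**Figure D4:**
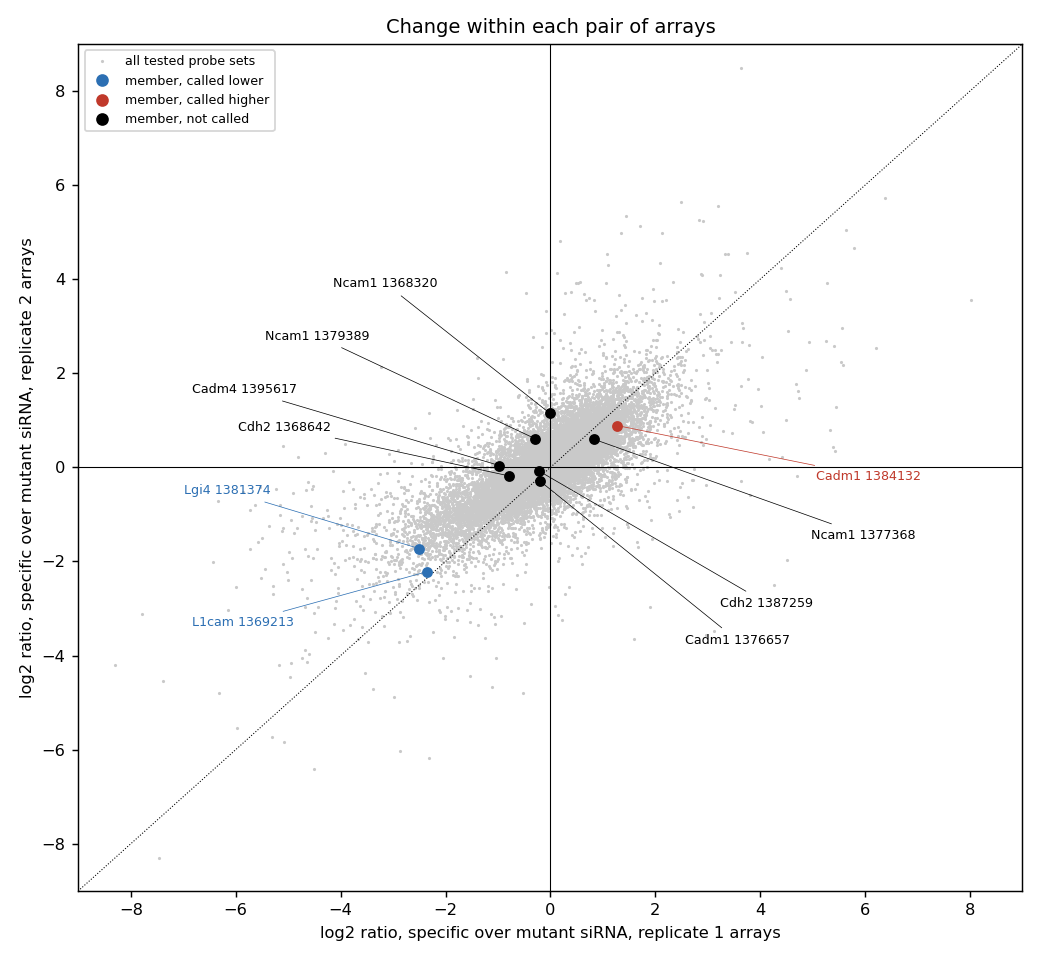
Log2 ratio of specific to mutant siRNA within the replicate 1 arrays (horizontal axis) and within the replicate 2 arrays (vertical axis), with grey points for the 16125 tested probe sets and larger points for the adhesion molecules, blue where called lower, red where called higher and black where not called. L1cam (-2.36 and -2.22) lies on the dotted line of equal change, Lgi4 (-2.50 and -1.73) above it, and Ncam1 1368320_at (-0.01 and 1.15) on the vertical axis.

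The partners of these molecules were taken from 8 lists by role, 77 genes of which 63 had a probe set and 31 could be tested. A probe set of 8 genes (25.8%) fell and of 3 (9.68%) rose, where over all 9165 genes tested 12.8% had a probe set that fell and 19.7% one that rose. The lists were drawn up with earlier results of these data known, so that these shares are no independent sign of direction. The median log2 fold change was 0.01 over the 50 tested probe sets of the lists. The count that fell was smaller without either mutant siRNA array, and so was the count over all probe sets. Both counts grew with the replicate block, as did those over all probe sets, from 1956 lower and 2348 higher to 2580 and 3308. Of the partner genes 10 then fell, with Chl1 and Alcam added, and 5 rose, with Nectin3 (1378027_at alone) and Fgfr1 added.

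Mcam, an immunoglobulin-type molecule related to the L1 and NCAM families, fell in both of its probe sets, from 2791 and 2737 to 609 and 1349 in 1369793_a_at. Its log2 fold changes were -1.53 and -1.25 (adjusted p = 0.0152 and 0.0142 from limma), both lost without the variance trend and without either mutant siRNA array (adjusted p between 0.0614 and 0.0700 with an array left out). Chl1, a close relative of L1cam, was at -0.74 and Alcam at -0.59, and neither passed (adjusted p = 0.144 and 0.0814). With the replicate block both did (adjusted p = 0.0278 and 0.0293). A difference between L1cam and Chl1 was not tested.

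Of 15 tested genes on the list of node and internode partners, 4 had a probe set that fell (26.7%) and 1 had one that rose (6.67%). Over all genes tested these shares were 12.8% and 19.7%. Ezr (ezrin), of Schwann cell microvilli at the node, fell from 5765 and 5934 with the mutant siRNA to 1891 and 2026 with the specific siRNA, at -1.50 (standard error 0.16, adjusted p = 0.00166 from limma), and passed with each array left out. Its relatives Msn and Rdx lay between -0.21 and 0.13 in their 7 tested probe sets and did not pass. Epb41l2, the membrane skeleton protein 4.1G that places Cadm4 along the internode, fell from 1958 and 1993 to 665 and 880 in 1372643_at, at -1.29 (adjusted p = 0.00575), and was at -0.63 in a second probe set that did not pass (adjusted p = 0.255). Epb41l3, the relative that holds the paranodal complex on the axonal side, rose from 198 and 201 to 477 and 424 in 1370503_s_at, at 1.25 (adjusted p = 0.0105), while another probe set was at 0.40 and did not pass. Epb41l1, at -1.36, passed narrowly in 1 of its 2 tested probe sets (adjusted p = 0.0489), and the call was lost without the brightness rule, without the variance trend, without wild type siRNA replicate 2 and without either mutant siRNA array (adjusted p between 0.129 and 0.199 with an array left out). The 4th gene counted as fallen was Sptbn1, a spectrin, at -1.09 in 1371046_at, 1 of 3 tested probe sets. That call was lost without the variance trend and without either mutant siRNA array. Its brighter probe sets 1371419_at and 1390706_at were at 0.39 and 0.03 and did not pass (adjusted p = 0.128 and 0.918 from limma). The first of these was higher on both specific siRNA arrays. The anchors Ank2 and Ank3 did not pass, at 0.16 and 0.64, and Mag was too dim to test.

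**Figure D5:**
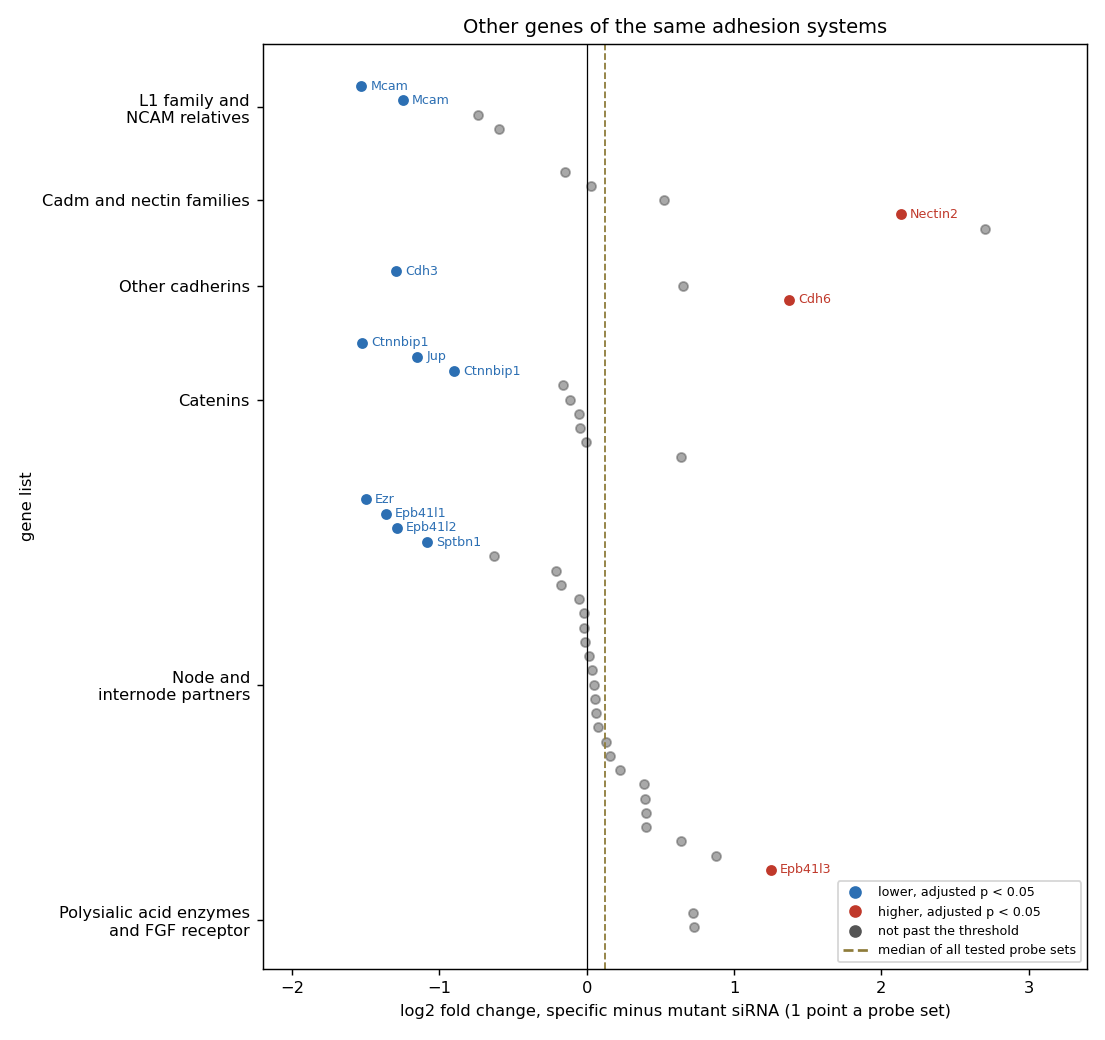
Log2 fold change, specific minus mutant siRNA, of the 50 tested probe sets of the partner lists, 1 point a probe set, grouped by list and ordered by value within it, with blue for lower, red for higher and grey for probe sets that did not pass the test. Named points are those that passed, from Mcam at -1.53 to Nectin2 at 2.13, and the contactin and Lgi lists are absent because none of their probe sets was bright enough to test.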

How the data were processed

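The authors deposited intensity values, which are linear MAS5 signals. The 2% trimmed mean of each array is near 500. Per the submitters' notes the tool was MAS5, its version not given, and detection calls were not used here. Of 31099 probe sets, 57 controls were left out. Symbols came from the platform annotation, which gives 1 symbol to 20826 probe sets, more than 1 to 436 and none to 9780. List genes were also matched through Entrez IDs to RefSeq symbols.

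The array median was subtracted from the log2 signals. Testing used limma 3.58.1 under R 4.3.3 on the 16125 probe sets that reached the median on 2 or more arrays (trended eBayes, Benjamini-Hochberg over all of them, threshold 0.05). Arrays had medians of 101 to 110, 25th percentiles of 26.2 to 31.0 and actin 3' to 5' ratios of 1.39 to 1.87 (highest on mutant siRNA replicate 1), and the mean signal of 24 poly-A spike-in probe sets was 408 and 437 in replicate 1, specific siRNA first, and 759 and 589 in replicate 2. After this centring the median of all tested probe sets was 0.13, against 0.05 without centring and 0.08 after quantile normalization, and changes are relative to that shift. Precision is limited by the number of arrays, 2 a group. The limma p-values rest on a spread that is in part borrowed from the other probe sets, and not on these samples alone. Numbers pair the arrays by the submitters' design text and the paper. The deviations of arrays of 1 number from their groups were only weakly correlated (0.14 over the tested probe sets), and a replicate block was an alternative.

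Members and lists were chosen with earlier results of these data known. All members are named, and of each list up to 4 called genes with the largest changes. Sptbn1, a further called gene, and uncalled genes were named after their values were seen. The fit was tested on simulated data. Python 3.11.15 made the figures.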

Additional observations from a re-analysis of the deposited data

How the results depend on the processing

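Of 149 recomputed log2 fold changes of the 10 tested probe sets under 15 alternatives, 137 kept direction and side of the threshold. L1cam, Lgi4 and Cadm1 1384132_at passed under every alternative but the methods' t-test with Benjamini-Hochberg adjustment, where no member passed and adjusted p were 0.171, 0.201 and 0.180. That test called 0 probe sets lower and 2 higher over all probe sets, 0 and 0 among partner genes, against 1386, 2444 and 3 partner genes each way at an unadjusted p under 0.05, where 2 members were lower and 1 higher. Members called were 2 to 3 lower and 1 to 2 higher with an array left out, partner genes 3 to 7 and 2 to 4, and all probe sets 706 to 2519 and 924 to 2128. Without the variance trend, 1187 probe sets were lower, 1177 higher and 5 partner genes lower. With the replicate block, 10 partner genes were lower, 5 were higher and Cdh2 1368642_at passed. It changed no other call among the members. Directions reversed with an array left out, with no call on either side, for Ncam1 1377368_at (-0.088 without mutant siRNA replicate 1, range up to 1.52), for Ncam1 1379389_at (-0.31 without wild type siRNA replicate 2, range up to 0.63), and without wild type siRNA replicate 1 or mutant siRNA replicate 2 for Cadm1 1376657_at (0.15 and 0.20, range from -0.69) and Cdh2 1387259_at (0.13 and 0.06, range from -0.42). The cause was not tested. With 3 arrays, the single array of a group is taken to have the spread of the pair. The balance of lower and higher calls over all probe sets, 1956 and 2348, turned to 2280 and 1940 without centring and to 2150 and 2043 after quantile normalization. Ncam1 1377368_at was too dim for the rule of all 4 arrays.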
